A study of Homo sapiens with 15 samples.

Results

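The interferon response genes described here are a list of 40 human genes that type I interferon is known to induce, taken by gene symbol from the deposited table of raw read counts. Of the 40, 38 were among the 15510 genes of that table, and 36 of the 38 passed the filter on low counts and could be tested. OAS2 and XAF1 did not pass it. MX2 and RSAD2 were not among the genes of the table and have no level here, and RSAD2 enters the promoter search alone. Poly(A) RNA was sequenced in 15 libraries from 5 related human cell lines, with 3 libraries per line, and 20.63 to 46.55 M reads per library were counted on genes.

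All 5 lines descend from ARPE19, an established line of human retinal pigment epithelial cells, grown as an adherent culture in DMEM/F12 with serum. ARPE19 itself received no plasmid and is labelled as not transformed. T53D4, also labelled as not transformed, is described as transfected with plasmids for hTERT and p53DD, a piece of p53 that blocks the whole protein, and for cyclin D1 and CDK4R24C, an inhibitor-resistant CDK4. RasV12 (H-RasV12, labelled transformed), MekDD (constitutively active MEK, labelled weakly transformed) and AKTmyr (membrane-anchored AKT, labelled transformed) carry those plasmids plus the one named. There is 1 line per construct, and each library came from its own freshly thawed vial after 2 passages, so the p-values compare these lines against the spread between vials and preparations, not between independently made lines.

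The construct reads checked these labels in part. The RAS construct gave 310 ± 30.4 CPM (SD, n = 3) in RasV12, the MEK construct 753 ± 229 in MekDD and the AKT construct 840 ± 334 in AKTmyr, each the highest of the 5 lines for its own construct (CPM, counts scaled to a common library size). The hTERT construct gave 879 ± 147 CPM and the p53DD construct 70.7 ± 20.1 CPM in T53D4, against 0.176 ± 0.0538 and 0.0098 ± 0.017 in ARPE19. The cyclin D1 construct gave 146 ± 32.1 CPM in the libraries labelled T53D4 against 193 ± 41.6 in ARPE19, which received none, and 2350 ± 121 in RasV12. The CDK4 construct gave 92.2 ± 11.8 CPM in T53D4 and 70.7 ± 12.0 in ARPE19 against 2380 ± 23.3 in RasV12. MekDD, which should carry both, gave 269.5 ± 57.6 and 142 ± 13.7 CPM, and AKTmyr 858 ± 132 and 1006 ± 90.1. For cyclin D1 and CDK4 the libraries labelled T53D4 and MekDD thus stood nearer to ARPE19 than to RasV12, against their labels, so each contrast with T53D4 was also computed with ARPE19 as the reference. The pigment epithelium factors MITF and OTX2 stood at 25.1 to 114 and 44.2 to 110 CPM over the 15 libraries and the epithelial keratin KRT8 at 579 to 1742, while RPE65, the visual cycle enzyme of differentiated pigment epithelium, reached at most 0.154 CPM. Of the 4 epithelial markers, CDH1 was counted at 23, 14 and 2 reads for ARPE19, 16, 13 and 4 for T53D4 and 81, 23 and 16 for AKTmyr. It had 0, 1 and 0 reads for RasV12 and 1, 1 and 0 for MekDD. KRT18 and CDH2 had 3705 to 26545 and 4663 to 17615 reads per library. Of the pigment epithelium markers, TYR had 0 to 20 reads per library, RLBP1 40 to 307 and PMEL 55 to 305. The others on that list are not reported here. Of 7 leukocyte markers, 5 were in the table, PTPRC at 0 to 0.208 CPM, CD14 at 0.0217 to 0.380, LYZ at 0 to 0.127, CSF1R at 2.54 to 21.3 and ITGAM at 0 to 2.81. Their summed level was 3.17 to 6.94 CPM for ARPE19, 3.52 to 8.08 for T53D4, 12.2 to 21.5 for RasV12, 4.01 to 4.92 for MekDD and 5.29 to 8.78 for AKTmyr, most of it CSF1R and, in some libraries, ITGAM. ITGAM stood at 2.81, 1.10 and 0.416 CPM for ARPE19, 1.75, 0.434 and 0.333 for T53D4, 0, 0 and 0.045 for RasV12, 0.0623, 0.0254 and 0.0845 for MekDD and 1.43, 0.33 and 0.125 for AKTmyr, and CSF1R was highest in the 3 RasV12 libraries. The part of these markers in the results was not tested.

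Interferons are secreted proteins that cells release after sensing foreign nucleic acid. Binding to the type I receptor activates the kinases JAK1 and TYK2, which act on STAT proteins, and STAT2 with IRF9 forms part of the complex ISGF3. ISGF3 binds the interferon-stimulated response element (ISRE) in the promoters of the induced genes, whose products sense viral RNA, degrade it, or block entry, translation and release of virus. Many of the genes also have a basal level in unstimulated epithelial cells, and the labels name no interferon treatment.

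Promoter sequence is shown here because it is the feature the list is known to share and because the genes shown differ in how they behaved in the 5 lines. RefSeq promoter windows (build GRCh38.p14, 250 bases before to 50 after a start) were found for 32 of the 40 listed genes. IRF7, USP18, IFIT2, IFITM2, OAS2, OASL, MX2 and TRIM22 had no entry. The core letters of the ISRE, GAAA and again GAAA with 2 bases of any kind between them, were searched on both strands with overlapping matches allowed. They occurred in at least 1 window of 22 of the 32 genes (68.75%) against 1195 of 27305 genes with a window (4.38%). By window, 26 of 41 held a match against 3.57% of 35116 windows. A match is a string of letters and not evidence of binding. The following 60-base stretches, written in the direction of the gene with every ISRE match in capitals, come from genes that were highest in RasV12 (IFI44L, HERC5), lowest in RasV12 (IFIH1, OAS3), highest in AKTmyr (IFI27, ISG20), lowest in MekDD (SAMD9), or not called by edgeR in any comparison in a fit without the replicate number as a block (ISG15, IFIT1).
IFI44L: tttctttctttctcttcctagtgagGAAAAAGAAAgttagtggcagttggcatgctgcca
HERC5: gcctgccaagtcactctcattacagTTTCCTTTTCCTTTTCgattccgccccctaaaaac
IFIH1: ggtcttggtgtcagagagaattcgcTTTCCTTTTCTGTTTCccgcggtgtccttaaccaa
OAS3: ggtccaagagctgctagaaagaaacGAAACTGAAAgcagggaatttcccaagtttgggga
IFI27: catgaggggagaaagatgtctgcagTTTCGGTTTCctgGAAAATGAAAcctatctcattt
ISG20: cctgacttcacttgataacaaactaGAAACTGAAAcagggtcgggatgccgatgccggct
SAMD9: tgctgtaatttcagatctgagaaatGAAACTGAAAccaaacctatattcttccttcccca
ISG15: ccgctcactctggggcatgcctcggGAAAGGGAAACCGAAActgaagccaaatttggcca
IFIT1: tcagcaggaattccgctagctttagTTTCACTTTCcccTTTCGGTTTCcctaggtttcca
The IFI44L stretch lies at chr1:78620259-78620318, plus strand, that of HERC5 at chr4:88456969-88457028, plus strand, and that of IFIH1 at chr2:162318809-162318868, minus strand. The OAS3 stretch lies at chr12:112938306-112938365, plus strand, that of IFI27 at chr14:94110603-94110662, plus strand, and that of ISG20 at chr15:88638922-88638981, plus strand. The SAMD9 stretch lies at chr7:93118081-93118140, minus strand, that of ISG15 at chr1:1013359-1013418, plus strand, and that of IFIT1 at chr10:89392482-89392541, plus strand. Genes that were high in RasV12 and genes that were low in it both carried the letters, so the match did not separate them. OAS1, SAMD9L, DDX58, STAT2, IRF9, IRF1, UBE2L6, HERC6, IFI35 and XAF1 had a window without a match.

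The genes did not move as 1 group. In RasV12, IFI44L, IFI44, HERC5 and OASL were higher than in T53D4 while OAS1, OAS3, MX1, IFIH1, USP18, IFI27 and others were lower. In AKTmyr, IFI44L, IFI44, IFI27 and TRIM22 were higher and IFIT2 was lower. In MekDD, IFI44L was higher and OAS1, MX1, SAMD9 and SAMD9L were lower. Differences are given as log2 values from edgeR's quasi-likelihood fit over all 15 libraries, with Benjamini-Hochberg adjusted p over the 13599 genes tested, called edgeR adjusted p here, and a gene counts as called under 0.05. Unless the block on the replicate number or DESeq2 is named, a call is from this fit, which has the line as its only term. Not every call named above held when a library was left out or ARPE19 was the reference. Against T53D4, 11 of 17 calls in RasV12, 1 of 5 in MekDD and 3 of 5 in AKTmyr held under every alternative tried. Those of TRIM22 and IFIT2 in AKTmyr did not. Of the 36 genes, 26 were called for a difference of any kind among the 5 lines, against 46.1% of the genes tested. In bulk RNA, fewer cells expressing a gene and less RNA per cell cannot be told apart.

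**Figure D1:**
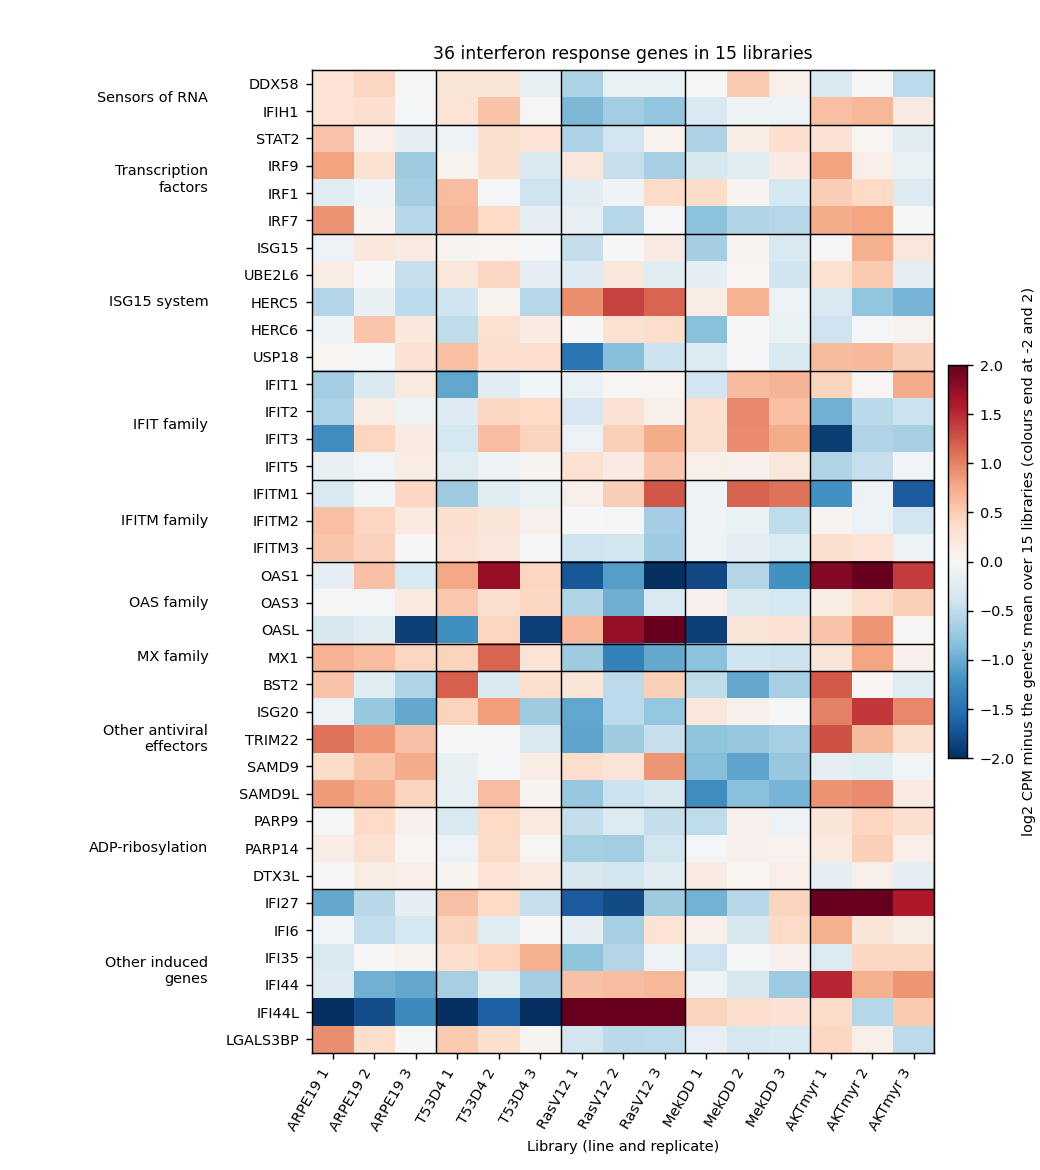
Level of each of the 36 tested interferon response genes (rows, grouped by role) in each of the 15 libraries (columns, 3 per line), as log2 CPM minus the gene's own mean over the 15 libraries, with colours ending at -2 and 2. The IFI44L row is darkest red in the 3 RasV12 libraries and blue in ARPE19 and T53D4, the OAS1 row is blue in RasV12 and MekDD and red in AKTmyr, and no column is of 1 colour throughout.

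The 3 oncogene lines were each compared with T53D4, and these 3 contrasts share the T53D4 libraries, so their values are set side by side without a test of likeness. RasV12 versus T53D4 called 4 of the 36 genes higher (10.8% of all tested genes were called higher) and 13 lower (13.6%). The median log2 difference of the 36 was -0.44, against 0.0073 over the 13599 genes. Together 17 of the 36 were called, against 24.4% of all genes. MekDD versus T53D4 called 1 higher (2.27% of all genes) and 4 lower (2.83%), with a median of -0.29 against 0.0030 and 5 of 36 called against 5.1%. AKTmyr versus T53D4 called 4 higher (9.91%) and 1 lower (10.2%), with a median of 0.098 against -0.011 and 5 of 36 called against 20.1%. With ARPE19 as the reference, RasV12 had 4 higher and 13 lower (14.4% and 16.2% of all genes), MekDD 1 and 6 (4.61% and 6.27%), and AKTmyr 5 and 1 (7.98% and 8.86%). The genes were not all the same. Among the lower in RasV12, 10 were shared, IFI35, IFI27 and ISG20 were lost, and PARP9, SAMD9L and IFITM2 were gained. Among the lower in MekDD, 3 were shared, OAS1 was lost, and TRIM22, IFITM3 and IFITM2 were gained. Among the higher in AKTmyr, 3 were shared, TRIM22 was lost, and OAS1 and ISG20 were gained. The 1 lower gene in AKTmyr was SAMD9 in place of IFIT2.

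T53D4 versus ARPE19 called 0 of the 36 genes in either direction (0.0368% of all genes higher, 0.118% lower and 0.154% in all). An unadjusted edgeR p under 0.05 was found for 6 of the 36, against 1456 of the 13599 genes tested. DESeq2 called 1, TRIM22, lower. With the replicate number as a block, which pairs same-numbered libraries across lines, edgeR called IFI35 higher (0.743% of all genes) and TRIM22 lower (0.963%). The largest differences were 1.12 for OAS1 (SE 0.47, edgeR adjusted p = 0.419) and -0.96 for TRIM22 (SE 0.22, edgeR adjusted p = 0.113).

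The same block changed the other counts against T53D4 as follows, and it also raised the shares over all genes. In RasV12 it gave 6 higher (16.6% of all genes), adding IFIT5 and SAMD9, and 16 lower (19.2%), adding PARP9, SAMD9L and IFITM2. In MekDD it gave 3 higher (5.49%), adding IFIT1 and IFIT2, and 11 lower (6.2%), adding IFI35, LGALS3BP, OAS3, IFIH1, BST2, IFITM3 and IFITM2. In AKTmyr it gave 7 higher (16.9%), adding OAS1, ISG20 and IFIT1, and 4 lower (17.9%), adding IFIT3, IFIT5 and IFITM2. Leaving out single libraries moved the MekDD count of lower genes from 4 to 0 without T53D4 replicate 2 and 2 without MekDD replicate 2. Without MekDD replicate 1 it was 1, OAS3, which was not among the 4. The RasV12 count of lower genes moved from 13 to 9 without T53D4 replicate 2, RasV12 replicate 1 or RasV12 replicate 2. In AKTmyr the count of 1 lower gene became 0 without T53D4 replicate 2, T53D4 replicate 3 or AKTmyr replicate 1, and 2 without T53D4 replicate 1 or AKTmyr replicate 3. Without AKTmyr replicate 2 it stayed at 1, but the gene was DTX3L in place of IFIT2. The shares of all genes in these refits are not given here.

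**Figure D2:**
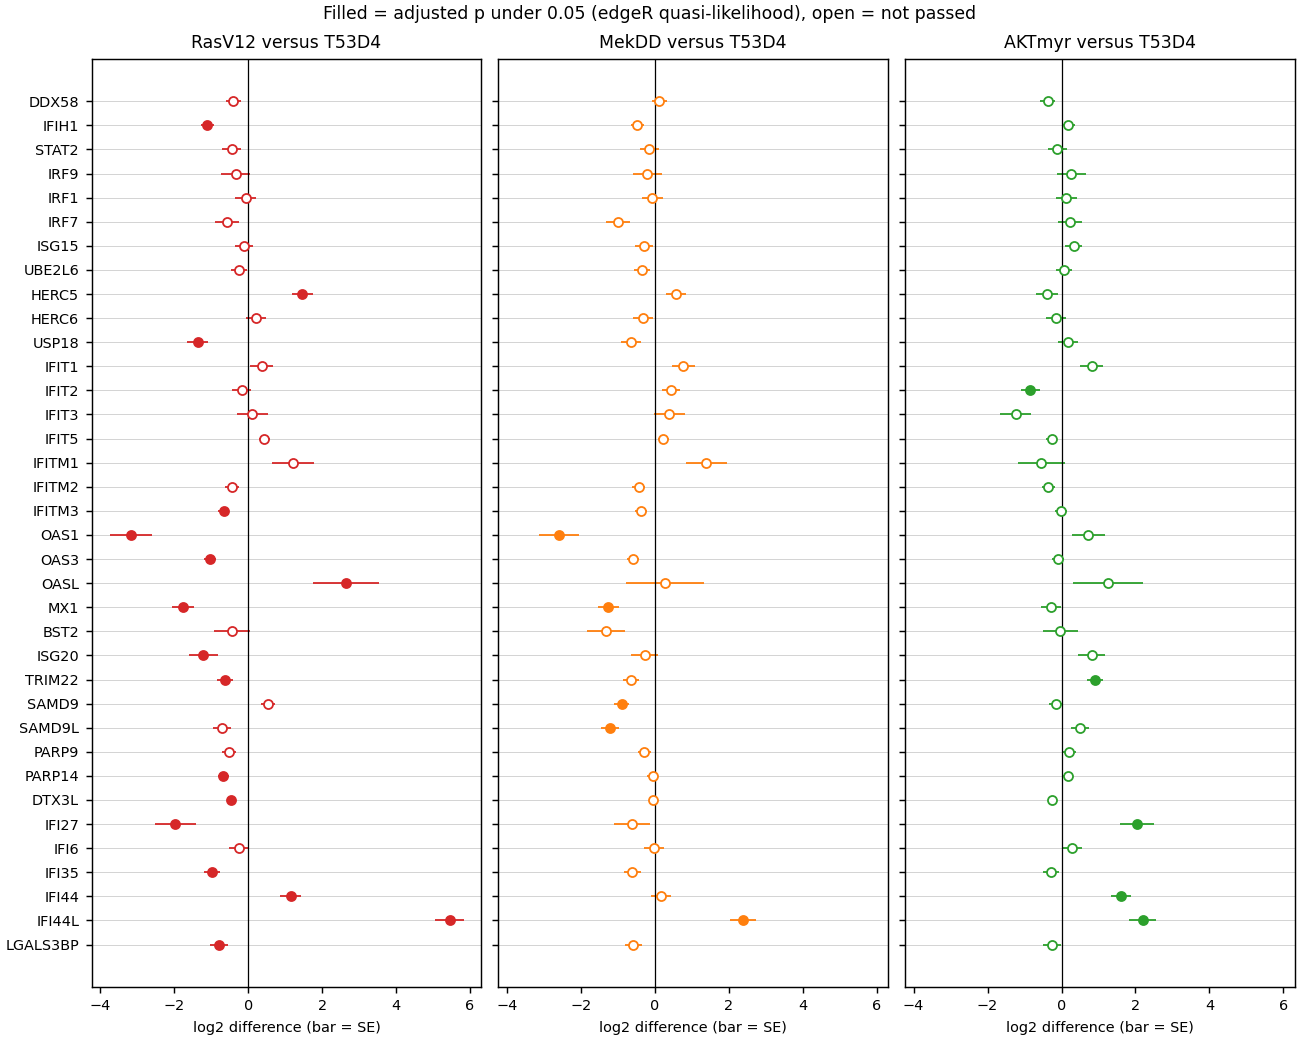
Log2 difference of RasV12, MekDD and AKTmyr from T53D4 (3 panels with 1 shared horizontal axis) for the 36 tested genes in the order of their roles; bars are the SE, filled points have an edgeR adjusted p under 0.05 and open points do not. Filled points lie on both sides of 0 in each panel, with IFI44L to the right in all 3 (5.44, 2.38 and 2.19).

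Per kilobase of annotated exon, the scale on which levels of different genes can be set side by side, LGALS3BP was the most abundant member at 102 CPM per kb (mean of 15 libraries), followed by IFITM3 at 90.7, IFITM2 at 38.8, UBE2L6 at 17.1, IFI6 at 14.9 and TRIM22 at 13.0. ISG15, often among the strongest responders to interferon, stood at 5.61 CPM per kb, at percentile 59.5 of the genes in the table. OAS1 stood at 0.120, OASL at 0.0742, OAS2 at 0.0204 and XAF1 at 0.00388 CPM per kb. The levels thus ran from percentile 97.8 for LGALS3BP to percentile 0.568 for XAF1.

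Of the 2 RNA sensors, IFIH1 fell in RasV12 and DDX58 was called in a pair of lines with the replicate block and in none without it. IFIH1 (chr2:162267074-162318684 in the deposited annotation) encodes a helicase that recognises long duplex RNA in the cytoplasm. Its levels were 21.2, 22.1 and 17.2 CPM for ARPE19 replicates 1, 2 and 3, 21.1, 26.1 and 17.7 for T53D4 and 9.31, 10.7 and 10.0 for RasV12. MekDD held 14.1, 16.4 and 16.3 CPM and AKTmyr 26.7, 27.6 and 19.5. Every RasV12 library was below every other library, and the MekDD libraries were below all T53D4 and AKTmyr libraries. IFIH1 was lower in RasV12 than in T53D4 (log2 -1.11, SE 0.17, edgeR adjusted p = 0.000345), than in AKTmyr (log2 -1.29, SE 0.17, edgeR adjusted p = 7.04e-05) and than in MekDD (log2 -0.64, SE 0.17, edgeR adjusted p = 0.0208). The last call ended without MekDD replicates 2 or 3 (-0.60 and -0.61) or RasV12 replicates 1 or 3 (-0.58 and -0.64). MekDD was also below AKTmyr (log2 -0.66, SE 0.17, edgeR adjusted p = 0.0119). DDX58, which encodes RIG-I, the sensor of short uncapped RNA, ranged from 7.34 CPM in RasV12 replicate 1 to 16.4 CPM in MekDD replicate 2, and its line means spanned 9.33 to 13.5 CPM. With the block it was lower in RasV12 than in MekDD (log2 -0.51, edgeR adjusted p = 0.0249) and higher in MekDD than in AKTmyr (log2 0.49, edgeR adjusted p = 0.0207).

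The 4 transcription factors gave 1 call in the 7 comparisons. STAT2 and IRF9 are subunits of ISGF3, IRF1 is an activator induced by both interferon types, and IRF7 drives the later wave of type I interferon genes. IRF7 stood at 18.3, 10.1 and 6.62 CPM for ARPE19, 15.3, 12.9 and 8.62 for T53D4 and 8.72, 6.55 and 9.59 for RasV12. MekDD held 5.48, 6.41 and 6.55 CPM and AKTmyr 16.5, 17.0 and 9.71. The 3 MekDD libraries lay below all ARPE19, T53D4 and AKTmyr libraries and around the lowest RasV12 library. IRF7 was lower in MekDD than in AKTmyr (log2 -1.23, SE 0.33, edgeR adjusted p = 0.0155), a call that ended without AKTmyr replicates 1 or 2 (-1.14 and -1.09) or MekDD replicate 1 (-1.15). Against T53D4 the MekDD difference was -1.0 (SE 0.33, edgeR adjusted p = 0.111). DESeq2 called that difference (log2 -1.0, DESeq2 adjusted p = 0.0437) and the lower level in RasV12 than in AKTmyr (log2 -0.81, DESeq2 adjusted p = 0.043). Line means of STAT2 spanned 37.0 to 51.7 CPM, with single libraries from 29.2 to 66.7. IRF9 stood at 0.875 to 2.61 CPM over the 15 libraries, and its span overlaps AL136295.5 on the same strand. IRF1 stood at 7.12 to 17.5 CPM, and its span overlaps AC116366.3 on the other strand.

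In the ISG15 system, HERC5 rose and USP18 fell in RasV12, and the modifier itself was not called in the fit without the replicate block but was with it and by DESeq2. HERC5, the main ligase that attaches the ubiquitin-like protein ISG15 to new proteins, stood at 1.23, 1.69 and 1.29 CPM for ARPE19, 1.40, 1.97 and 1.24 for T53D4 and 3.65, 4.89 and 4.28 for RasV12. MekDD held 2.09, 3.08 and 1.73 CPM and AKTmyr 1.51, 1.06 and 0.959. The RasV12 libraries were above all others, and the T53D4 and MekDD libraries overlapped. HERC5 was higher in RasV12 than in T53D4 (log2 1.46, SE 0.28, edgeR adjusted p = 0.00181) and than in AKTmyr (log2 1.85, SE 0.29, edgeR adjusted p = 0.000227). The MekDD level lay between, below RasV12 (log2 0.89, SE 0.27, edgeR adjusted p = 0.0429) and above AKTmyr (log2 0.97, SE 0.28, edgeR adjusted p = 0.0234). The first of these ended without MekDD replicates 1 or 3 (0.82 and 0.72) or RasV12 replicates 2 or 3 (0.78 and 0.89), and the second without AKTmyr replicates 2 or 3 (0.89 and 0.85) or MekDD replicate 2 (0.69).

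USP18 removes ISG15 from proteins and also dampens signalling at the type I receptor. It stood at 1.71, 1.41 and 1.43 CPM for T53D4, 0.365, 0.591 and 0.810 for RasV12, 0.904, 1.09 and 0.887 for MekDD and 1.76, 1.78 and 1.58 for AKTmyr, and at 1.14, 1.08 and 1.37 for ARPE19. The RasV12 libraries were the 3 lowest of the 15. USP18 was lower in RasV12 than in T53D4 (log2 -1.37, SE 0.28, edgeR adjusted p = 0.00275) and than in AKTmyr (log2 -1.55, SE 0.28, edgeR adjusted p = 0.000733). MekDD was lower than AKTmyr (log2 -0.82, SE 0.27, edgeR adjusted p = 0.0366), a call that ended without AKTmyr replicates 1 or 2 (-0.82 and -0.79) or MekDD replicates 1, 2 or 3 (-0.78, -0.94 and -0.77). ISG15 stood at 4.36, 5.51 and 5.41 CPM for ARPE19, 4.93, 4.90 and 4.62 for T53D4, 3.39, 4.70 and 5.31 for RasV12, 2.93, 4.93 and 3.85 for MekDD and 4.73, 7.79 and 5.54 for AKTmyr. Every line overlapped T53D4, and the largest of its 7 differences was -0.63 in MekDD versus AKTmyr (SE 0.24, edgeR adjusted p = 0.0692). That difference was called with the block (log2 -0.63, edgeR adjusted p = 0.0134) and by DESeq2 (log2 -0.65, DESeq2 adjusted p = 0.04), and also without MekDD replicate 2 or AKTmyr replicate 1. UBE2L6, the enzyme that carries ISG15 to the ligase, had line means of 30.7 to 40.9 CPM, and HERC6, a relative of HERC5, 4.25 to 6.17 CPM. Both were called with the block alone, UBE2L6 lower in MekDD than in AKTmyr (log2 -0.40, edgeR adjusted p = 0.0196) and HERC6 higher in RasV12 than in MekDD (log2 0.54, edgeR adjusted p = 0.0166).

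The IFIT family, proteins that bind foreign RNA ends and block translation, gave its calls in comparisons with AKTmyr in the edgeR fit without the replicate block. In these comparisons IFIT2, IFIT3 and IFIT5 were lower in AKTmyr. IFIT2 stood at 6.80, 11.7 and 9.79 CPM for ARPE19, 8.80, 14.1 and 13.9 for T53D4 and 8.32, 12.8 and 11.3 for RasV12. MekDD held 13.3, 20.5 and 16.0 CPM and AKTmyr 5.38, 7.24 and 7.79. The 3 AKTmyr libraries were below all T53D4, RasV12 and MekDD libraries. IFIT2 was lower in AKTmyr than in T53D4 (log2 -0.85, SE 0.26, edgeR adjusted p = 0.0321), a call that ended without T53D4 replicates 2 or 3 (-0.74 and -0.75) or AKTmyr replicates 1 or 2 (-0.69 and -0.90) and with ARPE19 as the reference (log2 -0.47, edgeR adjusted p = 0.236). MekDD was above AKTmyr (log2 1.29, SE 0.26, edgeR adjusted p = 0.00288), and this call held under every alternative tried.

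IFIT3 stood at 14.9, 29.4 and 25.9 CPM for T53D4, 17.5, 26.5 and 32.1 for RasV12, 23.7, 36.7 and 31.7 for MekDD and 5.05, 12.6 and 12.0 for AKTmyr, and at 8.06, 25.7 and 21.2 for ARPE19. AKTmyr was below RasV12, MekDD and T53D4 without overlap. IFIT3 was higher in MekDD than in AKTmyr (log2 1.64, SE 0.43, edgeR adjusted p = 0.0129) and in RasV12 than in AKTmyr (log2 1.36, SE 0.42, edgeR adjusted p = 0.0207). The first call ended without AKTmyr replicate 1 (1.30), and the second without AKTmyr replicate 1 (1.03) or RasV12 replicates 2 or 3 (1.33 and 1.16). IFIT5 was also above AKTmyr in RasV12 (log2 0.70, SE 0.15, edgeR adjusted p = 0.00264) and in MekDD (log2 0.50, SE 0.15, edgeR adjusted p = 0.0282), and the latter ended without AKTmyr replicates 1 or 2 (0.37 and 0.45) or MekDD replicates 1, 2 or 3 (0.51, 0.52 and 0.46). IFIT1 went the other way in AKTmyr, where it stood at 17.3, 13.1 and 21.3 CPM against 6.16, 10.9 and 12.3 for T53D4, a difference of 0.82 (SE 0.31) that was not called (edgeR adjusted p = 0.0816). The T53D4 and AKTmyr values of IFIT1 did not overlap, and the difference was called with the block (log2 0.87, edgeR adjusted p = 0.0106) and by DESeq2 (log2 0.83, DESeq2 adjusted p = 0.0458). With the block, IFIT3 was lower in AKTmyr than in T53D4 (log2 -1.28, edgeR adjusted p = 0.000448), as DESeq2 also called it, and IFIT1 (log2 0.76, edgeR adjusted p = 0.0451) and IFIT2 (log2 0.45, edgeR adjusted p = 0.0219) were higher in MekDD than in T53D4. IFIT5 was not called in RasV12 versus T53D4 (edgeR adjusted p = 0.0522). It was called higher there by DESeq2 (log2 0.44, DESeq2 adjusted p = 0.0365), with the block (log2 0.43, edgeR adjusted p = 0.00364) and without RasV12 replicate 2.

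Features of the locus move with some of these values. IFIT1, IFIT2, IFIT3 and IFIT5 lie on the long arm of chromosome 10, and the annotated spans of IFIT1, IFIT2 and IFIT3 overlap LIPA on the other strand. Whether the counting used strand is not given in the sources used here. LIPA was higher in AKTmyr than in T53D4 (log2 0.43, SE 0.14, edgeR adjusted p = 0.0394) and lower in RasV12 than in AKTmyr (log2 -0.56, SE 0.14, edgeR adjusted p = 0.0052). These are the opposite signs to those of IFIT2 and IFIT3. Over the 415 tested genes of the long arm, the median log2 difference was 0.31 in RasV12 versus T53D4 and 0.28 in RasV12 versus AKTmyr, while over the 123 of the short arm it was -0.33 and -0.38. The long-arm median in RasV12 versus AKTmyr has the sign of the IFIT3 and IFIT5 calls there, while IFIT1 had the other sign (log2 -0.46). In MekDD versus AKTmyr, where IFIT2, IFIT3 and IFIT5 were also called, the long-arm median was 0.014. In AKTmyr versus T53D4, where IFIT2 was called lower, it was 0.034. The part of this arm-wide shift in the IFIT values was not tested.

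The IFITM proteins sit in membranes and hinder the fusion of enveloped viruses. IFITM3 fell in RasV12, with 76.8, 78.7 and 62.0 CPM against 124, 119 and 102 for T53D4, 94.1, 89.3 and 84.1 for MekDD, 127, 122 and 94.6 for AKTmyr and 149.8, 139 and 101 for ARPE19. The RasV12 libraries were the 3 lowest of the 15, and IFITM3 was lower than in T53D4 (log2 -0.67, SE 0.16, edgeR adjusted p = 0.00748) and than in AKTmyr (log2 -0.66, SE 0.16, edgeR adjusted p = 0.00492). IFITM2 had line means of 50.1 CPM in MekDD to 77.9 CPM in ARPE19 and was called in none of the 7 comparisons without the replicate block, although it was lower in RasV12 and MekDD with ARPE19 as the reference. With it, IFITM2 was lower than in T53D4 in RasV12 (log2 -0.46, edgeR adjusted p = 0.00212), MekDD (log2 -0.45, edgeR adjusted p = 0.0075) and AKTmyr (log2 -0.37, edgeR adjusted p = 0.00923). IFITM1 was carried by few reads, 4, 10 and 5 for T53D4, 8, 17 and 16 for RasV12, 8, 27 and 15 for MekDD and 3, 11 and 1 for AKTmyr. It was higher in RasV12 than in AKTmyr (log2 1.76, SE 0.58, edgeR adjusted p = 0.027) and in MekDD than in AKTmyr (log2 1.94, SE 0.58, edgeR adjusted p = 0.0241). The first call ended without AKTmyr replicates 1 or 3 (1.49 and 1.46) or RasV12 replicate 3 (1.38), and the second without AKTmyr replicates 1 or 3 (1.67 and 1.64) or MekDD replicates 2 or 3 (1.67 and 1.81). IFITM1 and IFITM2 overlap on the same strand, and 29.4% of the 50-base words of the IFITM1 exons occur in IFITM2, so reads of these genes may be shared between them.

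The OAS family makes oligoadenylates when duplex RNA is present, and its members moved in opposite directions in RasV12. OAS1 fell to a few reads per library in RasV12, with 2, 6 and 1 reads against 20, 64 and 11 for T53D4 and 55, 83 and 26 for AKTmyr. In CPM this was 0.0730, 0.142 and 0.0450 for RasV12, 0.685, 1.39 and 0.524 for T53D4 and 1.49, 1.83 and 1.08 for AKTmyr. MekDD held 0.0623, 0.229 and 0.127 CPM and ARPE19 0.322, 0.589 and 0.292. The RasV12 and MekDD libraries were below all libraries of the other 3 lines. OAS1 was lower than in T53D4 in RasV12 (log2 -3.18, SE 0.57, edgeR adjusted p = 0.00107) and in MekDD (log2 -2.60, SE 0.53, edgeR adjusted p = 0.0108), and lower than in AKTmyr in RasV12 (log2 -3.91, SE 0.56, edgeR adjusted p = 0.000133) and in MekDD (log2 -3.32, SE 0.53, edgeR adjusted p = 0.000578). Against ARPE19 the RasV12 difference was smaller (log2 -2.07, edgeR adjusted p = 0.0173) and the MekDD call ended (log2 -1.48, edgeR adjusted p = 0.107). That call also ended without T53D4 replicate 2 (-2.05) or MekDD replicate 1 (-2.24). With counts this low, a few reads decide the size of the fold.

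OAS3, the longest enzyme of the family, stood at 43.6, 42.3 and 49.1 CPM for ARPE19, 61.9, 53.5 and 57.0 for T53D4 and 28.1, 21.7 and 34.5 for RasV12. MekDD held 45.2, 34.7 and 33.6 CPM and AKTmyr 47.5, 54.5 and 59.7. The T53D4 libraries were above all RasV12 and MekDD libraries. The MekDD difference from T53D4 was not called (edgeR adjusted p = 0.0507). It was called by DESeq2 (log2 -0.61, DESeq2 adjusted p = 0.0132), with the block (log2 -0.60, edgeR adjusted p = 0.0199), with RLE factors and without MekDD replicate 1. OAS3 was lower in RasV12 than in T53D4 (log2 -1.03, SE 0.17, edgeR adjusted p = 0.000474) and than in AKTmyr (log2 -0.94, SE 0.17, edgeR adjusted p = 0.000607). It was lower in MekDD than in AKTmyr (log2 -0.51, SE 0.16, edgeR adjusted p = 0.0355), a call that ended without AKTmyr replicates 2 or 3 (-0.50 and -0.43) or MekDD replicates 2 or 3 (-0.46 and -0.43). OASL, a relative that lacks the synthase activity, was counted at 1, 11 and 0 reads for T53D4 and 8, 29 and 27 for RasV12, and was higher in RasV12 (log2 2.64, SE 0.90, edgeR adjusted p = 0.0461). That call ended without T53D4 replicates 1 or 3 (2.28 and 2.25) or RasV12 replicates 2 or 3 (2.69 and 2.12). OAS2 was listed at 6, 12 and 14 reads for RasV12, 3, 3 and 1 for T53D4, 2, 5 and 7 for AKTmyr, 2, 2 and 0 for ARPE19 and 0 in every MekDD library, where 3 reads over the 3 libraries would be 0.0316 CPM. DESeq2, with its own filter, called OAS2 higher in RasV12 (DESeq2 adjusted p = 0.000682) and in AKTmyr (DESeq2 adjusted p = 0.0102) than in MekDD, with no fold given against a line at 0. Without the filter on low counts, edgeR also called OAS2 in both contrasts, and higher in RasV12 than in T53D4. OAS1 (chr12:112906783-112933222), OAS3 (chr12:112938444-112973251) and OAS2 (chr12:112978395-113011723) are neighbours on chromosome 12.

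MX1, a dynamin-like GTPase that traps viral nucleoproteins, fell in RasV12 and MekDD. It stood at 3.40, 3.2 and 2.83 CPM for ARPE19, 2.84, 4.71 and 2.52 for T53D4, 1.24, 0.780 and 0.991 for RasV12, 1.15, 1.55 and 1.52 for MekDD and 2.46, 3.63 and 2.21 for AKTmyr. The 6 RasV12 and MekDD libraries were below the 9 others. MX1 was lower than in T53D4 in RasV12 (log2 -1.76, SE 0.30, edgeR adjusted p = 0.000707) and in MekDD (log2 -1.26, SE 0.29, edgeR adjusted p = 0.0205), and lower than in AKTmyr in RasV12 (log2 -1.48, SE 0.30, edgeR adjusted p = 0.0015) and in MekDD (log2 -0.98, SE 0.29, edgeR adjusted p = 0.0233). Both RasV12 calls held under every alternative tried. The MekDD call against T53D4 ended without T53D4 replicate 2 (-0.93) or MekDD replicates 1 or 2 (-1.14 and -1.34), and that against AKTmyr without AKTmyr replicate 2 (-0.73) or MekDD replicates 1 or 2 (-0.85 and -1.07).

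**Figure D3:**
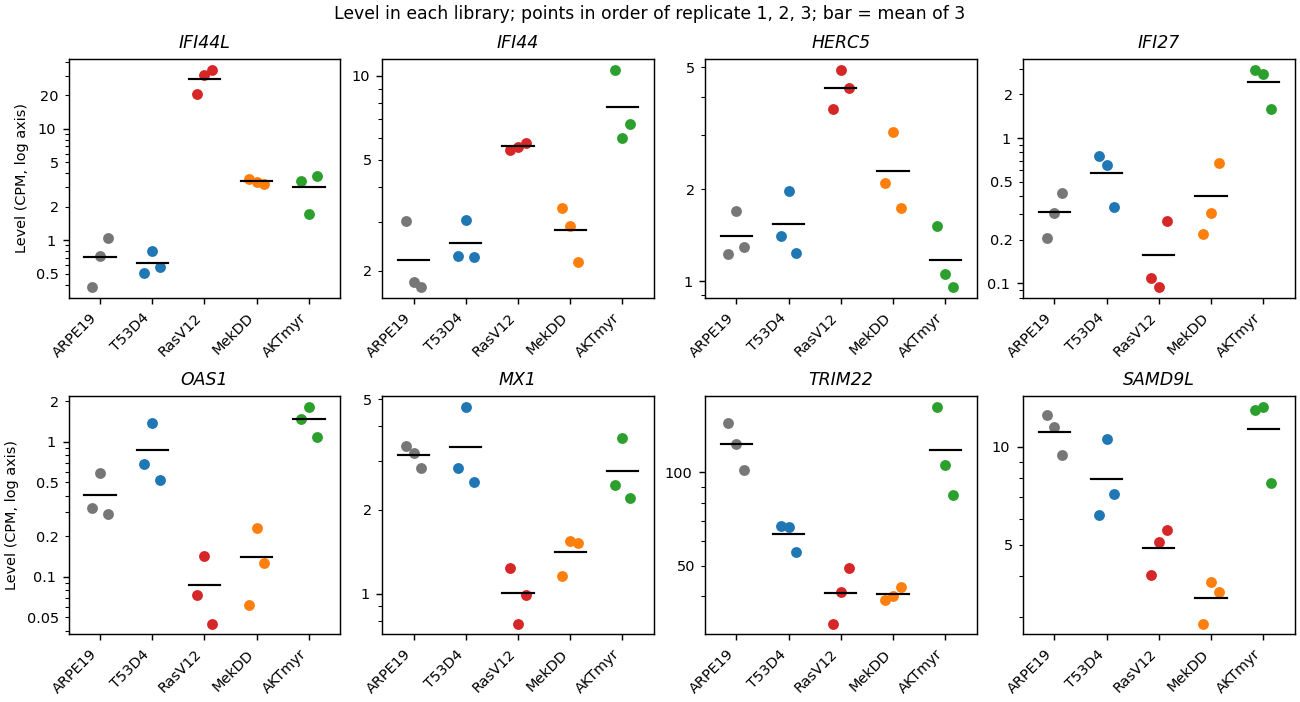
Level of 8 interferon response genes in CPM (log axis) in each library, by line, with points in the order of replicates 1, 2 and 3 and a bar at the mean of 3. IFI44L is highest in RasV12, IFI27 and OAS1 are lowest in RasV12 or MekDD and highest in AKTmyr, and TRIM22 is as high in ARPE19 as in AKTmyr.

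Among the other antiviral effectors, TRIM22, a ubiquitin ligase with antiviral activity, gave calls that depended on the reference. It stood at 144, 123 and 102 CPM for ARPE19, 67.2, 66.8 and 55.5 for T53D4, 32.6, 41.2 and 49.2 for RasV12, 38.9, 40.0 and 42.6 for MekDD and 163, 106 and 84.8 for AKTmyr. ARPE19 and AKTmyr overlapped each other and lay above all libraries of the other 3 lines. TRIM22 was higher in AKTmyr than in T53D4 (log2 0.90, SE 0.22, edgeR adjusted p = 0.0109), but with ARPE19 as the reference the sign turned and the call ended (log2 -0.063, edgeR adjusted p = 0.881). Against AKTmyr it was lower in RasV12 (log2 -1.53, SE 0.22, edgeR adjusted p = 0.000133) and in MekDD (log2 -1.54, SE 0.22, edgeR adjusted p = 0.000266). The RasV12 call against T53D4 (log2 -0.63, SE 0.22, edgeR adjusted p = 0.0487) ended without T53D4 replicates 1, 2 or 3 (-0.57, -0.58 and -0.71) or RasV12 replicates 1 or 2 (-0.48 and -0.63), while against ARPE19 the difference was larger (log2 -1.59, edgeR adjusted p = 0.000139). The span of TRIM22 overlaps TRIM5 on the other strand and OR56B1 on its own.

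SAMD9 and SAMD9L, neighbouring genes on chromosome 7 (chr7:93099513-93118023 and chr7:93130056-93148385) whose products restrict poxviruses and brake cell growth, were lowest in MekDD. SAMD9L stood at 12.5, 11.4 and 9.41 CPM for ARPE19, 6.16, 10.6 and 7.14 for T53D4, 4.05, 5.08 and 5.54 for RasV12, 2.87, 3.84 and 3.59 for MekDD and 12.9, 13.3 and 7.75 for AKTmyr. Each MekDD library was below every library of the other 4 lines. SAMD9L was lower in MekDD than in T53D4 (log2 -1.22, SE 0.25, edgeR adjusted p = 0.0111), a call that ended without T53D4 replicate 2 (-0.95) or MekDD replicate 1 (-1.10). Against AKTmyr it was lower in MekDD (log2 -1.72, SE 0.25, edgeR adjusted p = 0.000322) and in RasV12 (log2 -1.22, SE 0.25, edgeR adjusted p = 0.00164), and both calls held under every alternative tried. The SAMD9L difference of RasV12 from T53D4 was not called (edgeR adjusted p = 0.0507). It was called lower by DESeq2 (log2 -0.70, DESeq2 adjusted p = 0.0324) and with the block (log2 -0.69, edgeR adjusted p = 0.0282).

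SAMD9 stood at 5.27, 5.99 and 6.87 CPM for ARPE19, 3.66, 3.95 and 4.52 for T53D4, 5.22, 4.87 and 7.52 for RasV12, 2.21, 1.93 and 2.37 for MekDD and 3.59, 3.44 and 3.92 for AKTmyr. The MekDD libraries were again the 3 lowest, and the RasV12 libraries were all above T53D4. That RasV12 difference was not called (edgeR adjusted p = 0.0599). It was called by DESeq2 (log2 0.54, DESeq2 adjusted p = 0.0419) and with the block (log2 0.52, edgeR adjusted p = 0.0137). The contrast of RasV12 with MekDD was called (log2 1.43, SE 0.20, edgeR adjusted p = 0.000317) and held under every alternative tried. SAMD9 was lower in MekDD than in T53D4 (log2 -0.90, SE 0.20, edgeR adjusted p = 0.0176) and than in AKTmyr (log2 -0.75, SE 0.20, edgeR adjusted p = 0.0142), and higher in RasV12 than in AKTmyr (log2 0.68, SE 0.19, edgeR adjusted p = 0.0127). The first ended without T53D4 replicates 2 or 3 (-0.91 and -0.81) or MekDD replicates 1 or 2 (-0.91 and -0.81), the second without MekDD replicate 2 (-0.68), and the last without RasV12 replicate 3 (0.47).

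ISG20, an exonuclease that degrades RNA, stood at 0.674, 0.410 and 0.333 CPM for ARPE19, 1.03, 1.37 and 0.429 for T53D4, 0.329, 0.496 and 0.405 for RasV12, 0.872, 0.788 and 0.718 for MekDD and 1.54, 2.07 and 1.5 for AKTmyr. AKTmyr was above all other libraries, while RasV12 overlapped both T53D4 and ARPE19. ISG20 was lower in RasV12 than in AKTmyr (log2 -2.03, SE 0.39, edgeR adjusted p = 0.00117), a call that held under every alternative tried. The call against T53D4 (log2 -1.21, SE 0.40, edgeR adjusted p = 0.0395) ended without T53D4 replicates 1 or 2 (-1.15 and -0.83) or RasV12 replicates 1, 2 or 3 (-1.06, -1.39 and -1.20) and with ARPE19 as the reference (log2 -0.20, edgeR adjusted p = 0.751). MekDD was lower than AKTmyr (log2 -1.10, SE 0.37, edgeR adjusted p = 0.042), and that call ended without AKTmyr replicates 1, 2 or 3 (-1.19, -0.93 and -1.18) or MekDD replicates 1, 2 or 3 (-1.17, -1.10 and -1.04). BST2, which tethers budding virus to the cell surface, varied from 0.483 to 2.54 CPM over the libraries and was not called in the fit without the block. With the block it was lower in MekDD than in T53D4 (log2 -1.25, edgeR adjusted p = 0.0357) and than in AKTmyr (log2 -1.23, edgeR adjusted p = 0.0134), and DESeq2 called the latter (log2 -1.33, DESeq2 adjusted p = 0.0491), as did edgeR without AKTmyr replicate 3.

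Of the ADP-ribosylation genes, PARP14 and DTX3L fell in RasV12, while PARP9 passed against T53D4 with the replicate block or DESeq2 but not in the fit without it. PARP14, a mono-ADP-ribosyltransferase, stood at 51.4, 57.6 and 47.1 CPM for ARPE19, 42.7, 60.8 and 47.4 for T53D4, 29.5, 28.7 and 36.2 for RasV12, 46, 49.3 and 49.1 for MekDD and 53.1, 65.1 and 51.0 for AKTmyr. The RasV12 libraries were the 3 lowest of the 15. PARP14 was lower in RasV12 than in T53D4 (log2 -0.68, SE 0.15, edgeR adjusted p = 0.00426), AKTmyr (log2 -0.84, SE 0.15, edgeR adjusted p = 0.00061) and MekDD (log2 -0.61, SE 0.15, edgeR adjusted p = 0.0123), and the last call ended without RasV12 replicate 2 (-0.55). DTX3L, a ubiquitin ligase that works in a complex with PARP9, was lower in RasV12, at 30.6, 29.5 and 32.6 CPM, than in T53D4, at 39.5, 45.9 and 43.4 (log2 -0.48, SE 0.11, edgeR adjusted p = 0.00596). It was also lower than in MekDD (log2 -0.42, SE 0.11, edgeR adjusted p = 0.019), a call that ended without MekDD replicates 1 or 3 (-0.39 and -0.41) or RasV12 replicates 1 or 2 (-0.41 and -0.39). PARP9 was lower in RasV12 than in AKTmyr (log2 -0.74, SE 0.19, edgeR adjusted p = 0.00631), and its difference from T53D4 was -0.53 (SE 0.19, edgeR adjusted p = 0.0518). That difference was called with the block (log2 -0.51, edgeR adjusted p = 0.00338) and by DESeq2 (log2 -0.52, DESeq2 adjusted p = 0.039). PARP9 and DTX3L start head to head on chromosome 3 (chr3:122527924-122564577 and chr3:122564338-122575203), their spans overlap on opposite strands, and the ISRE match in their promoter windows is 1 and the same stretch read from either side.

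The widest range in the list belonged to IFI44L, a gene of uncertain antiviral function. It stood at 0.381, 0.717 and 1.04 CPM for ARPE19, 0.513, 0.803 and 0.571 for T53D4 and 20.4, 30.3 and 33.9 for RasV12. MekDD held 3.55, 3.36 and 3.21 CPM and AKTmyr 3.43, 1.74 and 3.79. The 3 oncogene lines lay above all ARPE19 and T53D4 libraries, and RasV12 above MekDD and AKTmyr, which overlapped each other. IFI44L was 43.5 times its T53D4 level in RasV12 (log2 5.44, SE 0.38, edgeR adjusted p = 5.93e-07), 5.22 times in MekDD (log2 2.38, SE 0.36, edgeR adjusted p = 0.00109) and 4.58 times in AKTmyr (log2 2.19, SE 0.36, edgeR adjusted p = 0.00131). RasV12 was above MekDD (log2 3.06, SE 0.33, edgeR adjusted p = 3.69e-05) and above AKTmyr (log2 3.25, SE 0.33, edgeR adjusted p = 8.24e-06), while MekDD and AKTmyr differed by 0.19 (SE 0.32, edgeR adjusted p = 0.696). All 5 of its calls held under every alternative tried, and with ARPE19 as the reference the RasV12 value was log2 5.33, edgeR adjusted p = 6.27e-07.

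IFI44, the neighbour of IFI44L on chromosome 1 (chr1:78649796-78664078 and chr1:78619922-78646145), did not follow the same order. It stood at 3.02, 1.82 and 1.75 CPM for ARPE19, 2.26, 3.04 and 2.24 for T53D4, 5.44, 5.56 and 5.76 for RasV12, 3.37, 2.90 and 2.16 for MekDD and 10.5, 5.99 and 6.75 for AKTmyr. RasV12 and AKTmyr were above all other libraries, and MekDD overlapped T53D4. IFI44 was higher than in T53D4 in RasV12 (log2 1.14, SE 0.27, edgeR adjusted p = 0.00699) and in AKTmyr (log2 1.62, SE 0.27, edgeR adjusted p = 0.00149), and lower in MekDD than in AKTmyr (log2 -1.46, SE 0.27, edgeR adjusted p = 0.00168). RasV12 was above MekDD (log2 0.99, SE 0.27, edgeR adjusted p = 0.0229), a call that ended without MekDD replicates 2 or 3 (1.01 and 0.83) or RasV12 replicates 2 or 3 (0.99 and 0.96).

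IFI27, a mitochondrial protein whose transcript is widely used to read interferon exposure in blood, was highest in AKTmyr and lowest in RasV12. The read counts were 109, 125 and 38 for AKTmyr, 22, 30 and 7 for T53D4 and 3, 4 and 6 for RasV12. In CPM the levels were 2.95, 2.75 and 1.58 for AKTmyr, 0.753, 0.651 and 0.333 for T53D4, 0.110, 0.0946 and 0.270 for RasV12, 0.218, 0.305 and 0.676 for MekDD and 0.205, 0.307 and 0.416 for ARPE19. The AKTmyr libraries were above the 12 others, and the RasV12 libraries were below T53D4 but overlapped ARPE19 and MekDD. IFI27 was higher in AKTmyr than in T53D4 (log2 2.04, SE 0.45, edgeR adjusted p = 0.00714) and far below AKTmyr in RasV12 (log2 -4.01, SE 0.53, edgeR adjusted p = 6.97e-05) and MekDD (log2 -2.65, SE 0.47, edgeR adjusted p = 0.00132). These calls held under every alternative tried. The RasV12 call against T53D4 (log2 -1.97, SE 0.55, edgeR adjusted p = 0.0178) ended without T53D4 replicates 1 or 2 (-1.76 and -1.88) or RasV12 replicates 1 or 2 (-1.80 and -1.65) and with ARPE19 as the reference (log2 -1.02, edgeR adjusted p = 0.204).

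IFI35, a partner of NMI in a cytoplasmic complex, stood at 7.70, 8.96 and 12.7 CPM for RasV12 against 17.2, 18.3 and 22.1 for T53D4 and 11.1, 13.6 and 14.2 for ARPE19. It was lower in RasV12 than in T53D4 (log2 -0.98, SE 0.23, edgeR adjusted p = 0.0059) but not called against ARPE19 (log2 -0.41, edgeR adjusted p = 0.187), whose libraries overlapped those of RasV12. Its call in RasV12 versus AKTmyr (log2 -0.69, SE 0.22, edgeR adjusted p = 0.0245) ended without AKTmyr replicates 2 or 3 (-0.58 and -0.58) or RasV12 replicates 1 or 2 (-0.54 and -0.63). LGALS3BP, a secreted glycoprotein that binds galectins, stood at 637, 428 and 336 CPM for ARPE19, 482, 417 and 348 for T53D4, 259, 230.2 and 233 for RasV12, 298, 265 and 271 for MekDD and 445, 362 and 232 for AKTmyr. It was lower in RasV12 than in T53D4 (log2 -0.79, SE 0.24, edgeR adjusted p = 0.0275), and the call ended without T53D4 replicates 1 or 2 (-0.66 and -0.79) or RasV12 replicates 1, 2 or 3 (-0.84, -0.76 and -0.76). IFI6, an endoplasmic reticulum protein that hinders viral replication compartments, had line means of 9.90 to 15.9 CPM and was not called in the fit without the block over all libraries, but was lower in RasV12 than in AKTmyr without RasV12 replicate 3. XAF1, which favours cell death, was counted at 1, 5 and 2 reads for RasV12 and at 0 in every T53D4 library. Without the filter on low counts, edgeR called XAF1 higher in RasV12 than in T53D4, on these few reads.

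The 3 oncogene lines were also compared with one another. RasV12 versus AKTmyr called 6 of the 36 genes higher (19.6% of all tested genes) and 13 lower (20.7%), with a median log2 difference of -0.47 against 0.010 over all genes, and 19 called in all against 40.4%. The 6 were IFI44L, HERC5, IFITM1, IFIT3, IFIT5 and SAMD9, and the count was 3 without RasV12 replicate 3. MekDD versus AKTmyr called 5 higher (12.7%) and 12 lower (13.5%), with a median of -0.39 against 0.014 and 17 called in all against 26.2%. The 5 were IFITM1, IFIT3, IFIT2, HERC5 and IFIT5. That count was 2 without MekDD replicate 2 or AKTmyr replicate 1, and 3 without MekDD replicate 3, AKTmyr replicate 2 or AKTmyr replicate 3. The 12 lower became 7 without AKTmyr replicate 2. With the block, 6 were higher (20.3% of all genes), adding DDX58, and 17 lower (20%), adding BST2, PARP9, IFITM3, UBE2L6 and ISG15. The largest negative differences from AKTmyr were those of OAS1, IFI27, SAMD9L and TRIM22 for MekDD, and those of IFI27, OAS1, ISG20 and USP18 for RasV12. For IFI27 and ISG20 the AKTmyr libraries were above all libraries of the other lines. Both comparisons share the AKTmyr libraries.

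RasV12 versus MekDD called 4 higher (7.17% of all tested genes), IFI44L, SAMD9, IFI44 and HERC5, and 3 lower (8.33%), IFIH1, PARP14 and DTX3L. The median was -0.22 against 0.00094 over all genes, and 7 were called in all against 15.5%. With the replicate number as a block, 6 were higher (12.5% of all genes), adding OASL and HERC6, and 8 were lower (13.9%), adding IFI35, DDX58, OAS3, IFIT2 and IFITM3. The 4 higher were 2 without RasV12 replicate 2, RasV12 replicate 3 or MekDD replicate 3, and the 3 lower were 1 without RasV12 replicate 1, RasV12 replicate 2 or MekDD replicate 3. Of the 70 calls of a member over the 7 comparisons, 38 held under every alternative tried. These were 11 of 17 in RasV12 versus T53D4, 1 of 5 in MekDD versus T53D4, 3 of 5 in AKTmyr versus T53D4, 2 of 7 in RasV12 versus MekDD, 15 of 19 in RasV12 versus AKTmyr and 6 of 17 in MekDD versus AKTmyr.

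Several members followed the replicate number as well as the line, as did many genes outside the list. In an edgeR fit with both terms, 14 of the 36 genes were called for the replicate number, against 30.5% of all tested genes. IFIT2, IFIT3, HERC6, PARP9 and IFI35 were lowest in replicate 1 in 5 of 5 lines. IFIT3, for example, was 8.06 CPM in ARPE19 replicate 1 against 25.7 and 21.2 in replicates 2 and 3, and 5.05 CPM in AKTmyr replicate 1 against 12.6 and 12.0. Over the 5 lines IFIT3 was higher than in replicate 1 by log2 1.02 in replicate 2 and 0.92 in replicate 3 (edgeR adjusted p = 0.00136). IFITM2 and LGALS3BP were highest in replicate 1 in 5 of 5 lines, and IFITM3 and BST2 in 4 of 5. The share of all tested genes with such an order is not given here, so these orders are not read as particular to the members. Depth also differed by replicate number, with 27.39 to 37.98 M reads in the replicate 1 libraries, 36.95 to 46.55 M in the replicate 2 libraries and 20.63 to 24.05 M in the replicate 3 libraries. The part of depth in this pattern was not tested. Without the 5 replicate 1 libraries, RasV12 versus T53D4 called 4 higher and 11 lower (10.7% and 12.1% of all genes), MekDD versus T53D4 1 and 1 (1.83% and 2.09%), and AKTmyr versus T53D4 4 and 2 (6.76% and 6.04%).

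**Figure D4:**
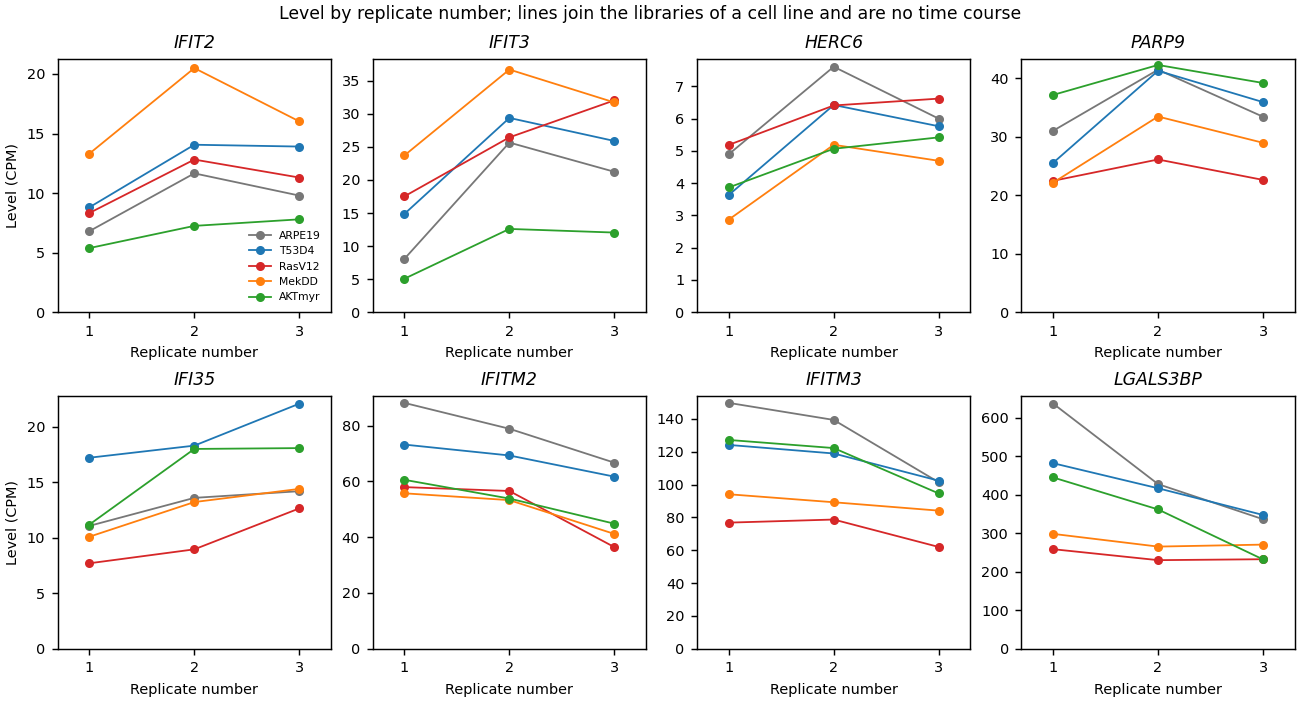
Level in CPM (linear axis from 0) of 8 interferon response genes against the replicate number, with 1 line per cell line; the joined points are separate libraries and no time course. IFIT2, IFIT3, HERC6, PARP9 and IFI35 are lowest at replicate 1 in each of the 5 lines, and IFITM2 and LGALS3BP are highest there.

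Other genes of the pathway, from lists chosen by function, were read in the same fit. Of 97 such genes in the table, 93 were tested. RasV12 versus T53D4 called 10 higher and 20 lower, MekDD versus T53D4 0 and 2, and AKTmyr versus T53D4 7 and 11, beside the shares of all genes given above. T53D4 versus ARPE19 called 0 in edgeR, with 9 of the 93 at an unadjusted p under 0.05 (1456 of the 13599 genes tested). DESeq2 called 2 higher in that contrast. The median log2 differences were -0.16 in RasV12, -0.15 in MekDD and 0.042 in AKTmyr, each against T53D4, and 0.032 in T53D4 versus ARPE19. With the block, MekDD had 4 higher and 6 lower, and AKTmyr 17 higher and 19 lower.

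Of the interferons listed, IFNE and IFNA1 were in the table. IFNE, an epithelial type I interferon, stood at 0.137, 0.108 and 0.190 CPM for T53D4, 2.12, 1.13 and 1.40 for RasV12 and 0.820, 0.589 and 0.167 for ARPE19, and was higher in RasV12 than in T53D4 (log2 3.44, SE 0.59, edgeR adjusted p = 0.000778). The RasV12 libraries were above all ARPE19 and T53D4 libraries. IFNE was counted at 4, 5 and 4 reads for T53D4, so a few reads decide the size of its fold. MekDD held 1.03, 0.458 and 0.380 CPM and AKTmyr 0.432, 0.242 and 0.208. Both lines also lay above T53D4 without overlap (log2 2.14 and 1.08), and neither difference was called in the fit without the block. IFNA1 was counted at 2, 2 and 4 reads for RasV12 and 0, 0 and 0 for T53D4, too few to test. Among 6 receptor chains, IFNAR2 (log2 0.81, SE 0.25, edgeR adjusted p = 0.0308) and IFNGR2 (log2 0.79, SE 0.20, edgeR adjusted p = 0.00992) were higher in RasV12.

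Of the kinases bound to the receptors, JAK1 was lower in RasV12 (log2 -0.68, SE 0.14, edgeR adjusted p = 0.00223) and JAK2 higher (log2 0.48, SE 0.16, edgeR adjusted p = 0.0355). SOCS3, a feedback inhibitor of JAK signalling, was higher in RasV12 (log2 0.91, SE 0.21, edgeR adjusted p = 0.00586).

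IRF5, an interferon regulatory factor, fell in RasV12. IRF5 stood at 4.83, 5.79 and 4.76 CPM for T53D4 and 0.876, 0.946 and 0.991 for RasV12 (log2 -2.45, SE 0.25, edgeR adjusted p = 1.26e-05). The endosomal sensor of duplex RNA, TLR3, stood at 4.79, 6.29 and 5.52 CPM for T53D4 and 0.621, 1.63 and 1.62 for RasV12 (log2 -2.09, SE 0.31, edgeR adjusted p = 0.000248).

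CGAS, the cytoplasmic sensor of DNA, was called lower in MekDD alone among the contrasts with T53D4, at 5, 12 and 2 reads against 101, 73 and 42 (log2 -3.58, SE 0.43, edgeR adjusted p = 0.00019). Its levels were 0.156, 0.305 and 0.0845 CPM for MekDD, 3.46, 1.58 and 2.00 for T53D4, 1.11, 1.23 and 1.42 for ARPE19, 2.48, 1.58 and 2.39 for RasV12 and 2.11, 2.09 and 1.33 for AKTmyr. Every MekDD library was below every other library. RasV12 was above MekDD by log2 3.45, SE 0.43, edgeR adjusted p = 0.000141.

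Further induced genes were mixed. EPSTI1 stood at 1.34, 1.56 and 1.00 CPM for T53D4 and 0.0730, 0.213 and 0.0901 for RasV12 (log2 -3.24, SE 0.61, edgeR adjusted p = 0.00154), while GBP5, a guanylate-binding protein, stood at 0.0342, 0 and 0 CPM and 0.730, 0.638 and 0.946 (log2 5.74, SE 0.99, edgeR adjusted p = 0.000811). GBP5 was counted at 1, 0 and 0 reads for T53D4, so its fold rests on a single read there.

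Of 16 genes of class I antigen presentation, 3 were higher and 0 lower in AKTmyr versus T53D4 (9.91% and 10.2% of all genes), and 0 were higher and 3 lower in RasV12 versus T53D4 (10.8% and 13.6%). TAP1, the peptide transporter, stood at 95.5, 93.5 and 52.5 CPM for AKTmyr and 54.1, 48.2 and 40.2 for T53D4 (log2 0.76, SE 0.22, edgeR adjusted p = 0.0281). In RasV12 versus AKTmyr, 9 of the 16 were lower (20.7% of all genes) and 0 higher (19.6%), HLA-B being among the lower (log2 -1.75, SE 0.34, edgeR adjusted p = 0.00118). HLA-B stood at 282, 252 and 532 CPM for RasV12 and 1603, 1185 and 793 for AKTmyr.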

How the data were processed

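The authors deposited raw read counts per gene for 15 poly(A) libraries, the unit tested here. HISAT2 2.1.0 and featureCounts 1.6.4, along with DESeq2 1.28.1, SAMtools 1.9, fastp 0.20.0 and deepTools 3.2.0, are named with build hg38 in the submitters' processing notes, without roles. The kit marks strand per the labels' protocols, but whether the counting used it is not given in the sources used here. The deposited normalised and log-scale tables were not used. The table held 15517 rows, of which 7 were construct sequences, left out of library sizes and fits, and its smallest row total was 10 reads. Exon lengths and positions came from the deposited annotation of the same build.

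Lines and replicates were assigned from the labels, and 0 count columns were unmatched. The filter on low counts (filterByExpr, grouped by line, minimum count 10) left 13599 genes. edgeR 4.0.16 (R 4.3.3) quasi-likelihood tests with TMM factors and Benjamini-Hochberg adjustment were fitted to all 15 libraries with line as the factor, giving 7 comparisons. CPM used the same factors. No fold was computed against a line at 0 reads; the floor of 3 reads over a line's libraries covers counting error only. The script was tested on simulated counts.

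Members, roles, pathway lists and tests were chosen with earlier results of these data known. Every member in the table could be named, and pathway genes where called or where their level is described; some pathway genes are not reported here. Alternatives were DESeq2 1.42.0, RLE factors, no filter, the 2 lines only, each replicate left out, and the replicate number as a block. ARPE19 as the reference, leaving out the 5 replicate 1 libraries, and the test of the replicate number were added after seeing the data. Same-numbered libraries deviated together, with correlations of their deviations from the line means of 0.14 to 0.64 for every pair in 6 comparisons. The labels give no shared day or batch, and the values given are from the fit without the block unless it is named; genes whose call the block changes are named with its counts. In RasV12 versus AKTmyr the replicate 1, 2 and 3 pairs gave 0.25, 0.34 and 0.027. Pairing was not assumed there, and whether it is absent for these 2 lines was not tested.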

Additional observations from a re-analysis of the deposited data

How the results depend on the processing

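Against T53D4, the replicate block gave 3 higher and 11 lower members in MekDD (1 and 4 without it) and 7 and 4 in AKTmyr (4 and 1). It gave 1 and 1 in T53D4 versus ARPE19 (0 and 0) and 8 lower in RasV12 versus MekDD (3). In RasV12 versus AKTmyr, where the pairing was not assumed, it gave 7 and 16 (6 and 13), adding IFIT2, LGALS3BP, IFI6 and IRF7, against 26.3% and 26.4% of all genes. DESeq2 called 1 lower in T53D4 versus ARPE19 and 2 lower in AKTmyr versus T53D4. Fitting the 2 lines only gave 0 lower in AKTmyr versus T53D4 and 2 higher in MekDD versus AKTmyr (5); OASL and IFI27 in RasV12 versus T53D4, and IFITM1 in both contrasts with AKTmyr, did not pass the filter of that smaller fit. Without the 5 replicate 1 libraries there was 1 lower in MekDD versus T53D4, 2 lower in AKTmyr versus T53D4 and 7 lower in MekDD versus AKTmyr (12). Leaving out single libraries gave 0 to 4 lower in MekDD versus T53D4, 0 to 2 lower in AKTmyr versus T53D4, 2 to 4 higher and 1 to 4 lower in RasV12 versus MekDD, 3 to 7 higher in RasV12 versus AKTmyr, and 2 to 4 higher and 7 to 12 lower in MekDD versus AKTmyr. The sign of 1 call turned, that of TRIM22 in AKTmyr versus T53D4, at -0.063 with ARPE19 as the reference. For the pathway lists, the block gave 17 higher and 19 lower in AKTmyr versus T53D4 (7 and 11), 4 and 6 in MekDD versus T53D4 (0 and 2), 7 higher in RasV12 versus MekDD (3), 28 lower in MekDD versus AKTmyr (17) and 2 higher in T53D4 versus ARPE19 (0). DESeq2 gave 12 higher in AKTmyr versus T53D4, 1 higher in MekDD versus T53D4 and 5 higher in RasV12 versus MekDD. With ARPE19 as the reference, AKTmyr had 12 higher and MekDD 4 higher and 7 lower. The 2 lines only gave 6 higher in RasV12 versus T53D4 (10), 6 lower in AKTmyr versus T53D4 and 4 higher in MekDD versus AKTmyr (9). Without the 5 replicate 1 libraries there were 5 higher in RasV12, 1 lower in MekDD, and 4 higher and 4 lower in AKTmyr, each against T53D4, 6 higher and 6 lower in RasV12 versus MekDD (3 and 10), and 11 lower in MekDD versus AKTmyr. Leaving out single libraries gave 4 to 8 higher and 12 to 22 lower in RasV12 versus T53D4, 1 to 2 lower in MekDD versus T53D4, 3 to 13 higher and 4 to 8 lower in AKTmyr versus T53D4, 4 to 8 lower in RasV12 versus MekDD, and 3 to 8 higher and 7 to 21 lower in MekDD versus AKTmyr. RLE factors and no filter left every count of called members within 1.5 times its value. The shares of all genes called are not given here for most of these refits. With the block they rose, from 9.91% to 16.9% called higher in AKTmyr versus T53D4. These counts are therefore not read as particular to the members or the pathway genes. The cause of these changes was not tested. Depth limits OAS1, OAS2, OASL, IFITM1, IFI27, ISG20 and XAF1, which had under 10 reads in at least 1 library.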
